A study of Caenorhabditis elegans with 9 samples.

Results

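Transcripts of 38 genes that build, move, fuse and recycle synaptic vesicles were followed in sorted VA motor neurons and in whole larvae of Caenorhabditis elegans. The genes were grouped by their known roles in vesicles, membrane fusion, the active zone, endocytosis, axonal transport and signalling, and a gene was described where the deposited comparison of wild type VA neurons with whole worms held its symbol. That table held 2349 genes and 35 of the 38 by symbol, where 11.6% of annotated protein-coding genes of the worm were listed. A further gene, cla-1, stood in it under the older symbol tag-80 and was found by its gene identifier, which gave 36 genes. Neither unc-64 nor unc-44 was in the table under a symbol or an identifier, and their levels were not analysed here. Every gene of the table had been selected by the authors as higher in VA neurons, so presence in it is itself set by these libraries, and each difference between VA neurons and whole worms below is a description rather than a test.

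A chemical synapse releases transmitter when calcium enters the axon terminal and a docked vesicle fuses with the plasma membrane. The vesicle SNARE protein synaptobrevin zips together with the plasma membrane SNAREs syntaxin and SNAP-25, while other proteins prime, clamp or trigger the complex. Scaffold proteins of the active zone hold vesicles next to calcium channels, endocytic proteins retrieve the membrane after fusion, and kinesin motors bring new vesicle precursors from the cell body. Nearly all neurons use this machinery, and VA motor neurons use it to release acetylcholine onto body wall muscle of the ventral side.

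Wild type VA neurons (3 libraries, replicates 1 to 3) came from synchronised larvae of the second stage, L2, that carried the reporters pUnc-4::mCherry and pUnc-4C::GFP. Red cells without green signal were sorted, and per the labels this gate also takes AVF neurons, which carry synaptic machinery too. VA neurons of unc-4 mutants (3 libraries, replicates 1 to 3) carried the same reporters and were sorted in the same way; the labels give no allele. Whole synchronised L2 worms of the wild type strain N2 (3 libraries, replicates 2 to 4) were frozen over liquid nitrogen as all cells, without a sort, so strain and handling differ between sorted cells and whole worms along with cell content. The labels do not state whether replicates were separate cultures. Values are TPM, a transcript abundance that corrects for transcript length and fixes the total of each library. Sequencing depth is unknown, and no counting interval is given. In all sentences below values of single libraries follow the order of replicates 1, 2 and 3 for VA neurons and 2, 3 and 4 for whole worms. Errors beside a mean are SD over 3 libraries.

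The 9 marker genes of VA and ventral cord cholinergic neurons that were looked up, among them unc-4, unc-3 and unc-17, were all in the table, against 2 of 52 markers of other cells, the GABA transporter gene snf-11 and the touch neuron tubulin gene mec-7. Of annotated protein-coding genes 11.6% were in the table. The VA markers summed to between 3498 and 4975 TPM in VA neurons and between 85.2 and 103 TPM in whole worms. The gene snf-11 read between 93.00 and 184 TPM in VA neurons and between 11.2 and 21.03 TPM in whole worms, and mec-7 between 351 and 1020.3 TPM in VA neurons and between 139 and 192 TPM in whole worms. The part of other neurons in the levels below was not tested, and levels of markers that are not in the table were not analysed here. In bulk samples such as these, fewer cells of a type and less RNA per cell cannot be told apart. The VA libraries were unequal. Heat shock genes took 5.04, 32.4 and 1.79% of the TPM total in the VA libraries, and the peptide genes flp-1 and nlp-49 together took 9.52, 3.14 and 14.8%. VA replicate 3 stood apart for the synaptic genes, so the overall ratios, the summed level and the role groups are also given without it; means of single genes include it.

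All 36 genes were higher in every VA library than in every whole-worm library, where 91.9% of all 2349 listed genes had no overlap. The groups were thus separate for each gene, although the selection of the table makes this likely and nothing is read from it. On log2(TPM + 1), all 36 fell under an adjusted p of 0.05 in limma's test (largest adjusted p 0.00647), against 95.1% of 2328 tested genes of the table, and these genes had been picked on the same contrast. The median difference was 2.81 for the synaptic genes and 1.83 for all tested genes, and single differences had an SE between 0.31 and 0.54. As a ratio of mean TPM, the 36 genes ran from 2.32 to 36.2 with a median of 8.65, against 5.18 for listed genes with any signal in whole worms. Without VA replicate 3 the ratios ran from 2.52 to 43.8 with a median of 10.9.

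**Figure D1:**
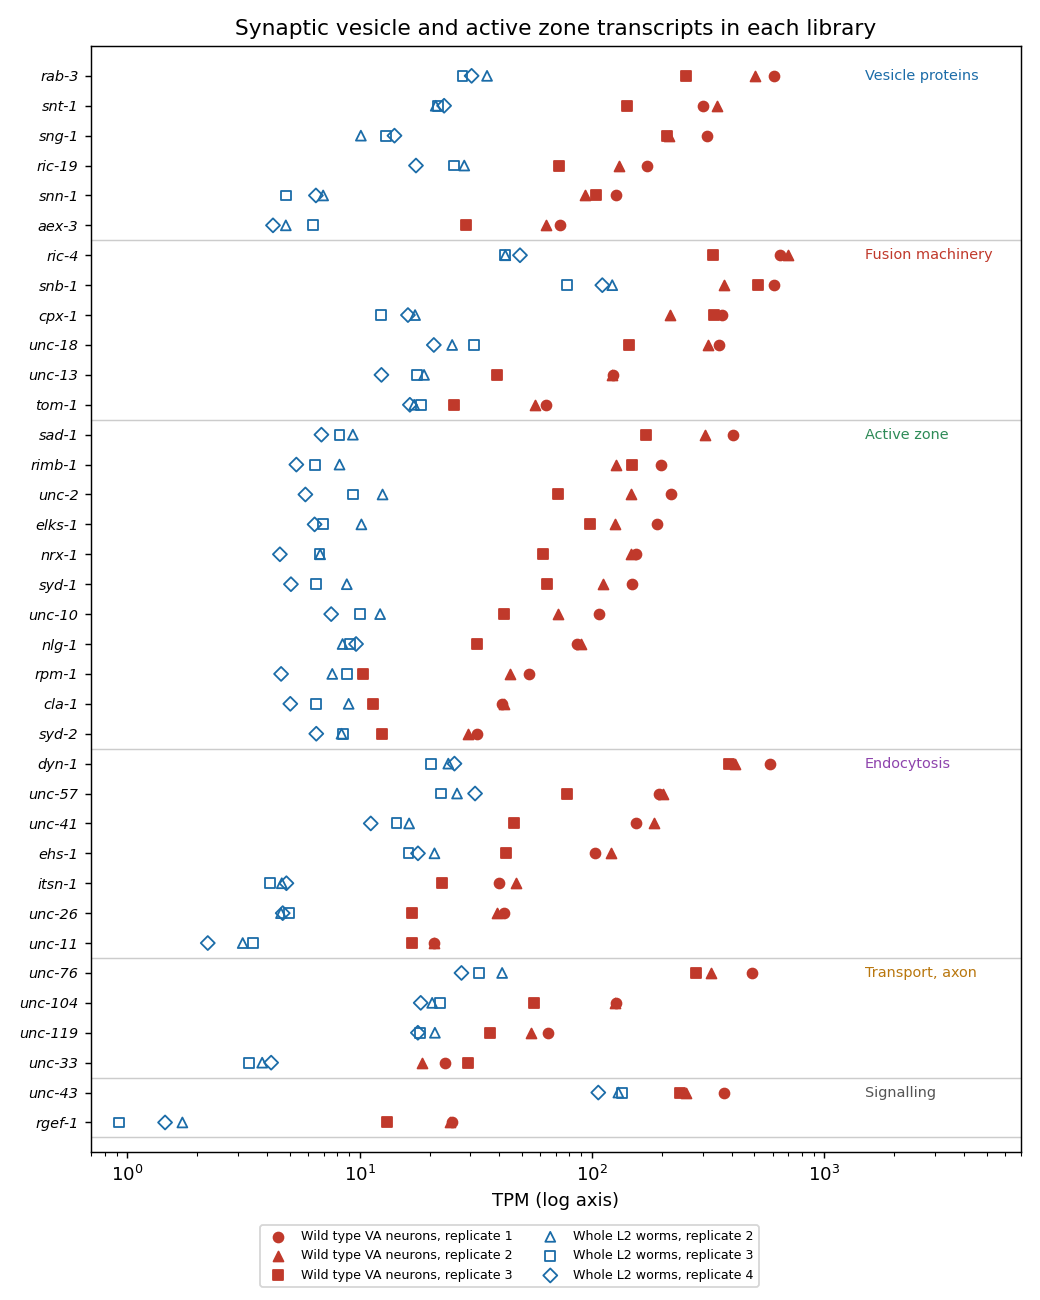
TPM on a log axis of 36 synaptic genes in each library, with wild type VA neurons as filled red symbols and whole L2 worms as open blue symbols, grouped by role and ordered by mean VA level. For every gene the 3 VA libraries lie to the right of the 3 whole-worm libraries, by the smallest margin for rpm-1, and VA replicate 3 (red squares) is the lowest VA library for 31 genes.

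Together the 36 genes summed to 7633, 6204 and 4197 TPM in VA neurons and 769.9, 684 and 663 TPM in whole worms. The mean sums were 6011 ± 1726 TPM in VA neurons and 705 ± 56.8 TPM in whole worms, a ratio of 8.52, and VA replicate 3 was far below the other VA libraries while still above all whole-worm libraries. The 36 genes made up 0.601 ± 0.173% of TPM in VA neurons and 0.0705 ± 0.00568% in whole worms. As a share of the TPM of all listed genes they made up 1.53, 1.06 and 0.984% in VA neurons and 1.52, 1.55 and 1.43% in whole worms, a lower share in VA replicates 2 and 3. All listed genes together took 50.3 ± 7.95% of TPM in VA neurons and 4.70 ± 0.332% in whole worms, a ratio of 10.7. That total includes the heat shock genes, at 5.04, 32.4 and 1.79% of TPM in VA neurons and 0.190, 0.0647 and 0.0534% in whole worms. It also includes flp-1 and nlp-49. The shares of the listed total and the ratio of 10.7 depend on these genes and were not computed without them. Active zone genes had the highest median ratio of a role group, 15.8, followed by vesicle proteins at 13.3. The medians were 8.19 for fusion genes, 6.88 for endocytic genes and 5.69 for transport genes, and the 2 signalling genes lay far apart. Ratios of single genes overlapped between roles, from 3.16 to 36.2 for active zone genes and from 5.26 to 19.8 for vesicle proteins. They ran from 2.81 to 19.97 for fusion genes, from 4.85 to 19.8 for endocytic genes and from 2.74 to 10.8 for transport genes. As a ratio of summed TPM, endocytic genes (9.81) stood above fusion genes (7.98), so the order of roles depends on the measure. Fusion genes held the largest share of the summed TPM in both groups, 29.6% in VA neurons and 31.6% in whole worms, while active zone genes held 19.99% in VA neurons and 12.1% in whole worms. Without VA replicate 3 the mean sum in VA neurons was 6918 TPM, a ratio of 9.81. The median ratios were then 19.2 for active zone genes, 16.2 for vesicle proteins, 10.3 for fusion genes, 8.56 for endocytic genes and 5.89 for transport genes. Fusion genes then held 28.5% of the VA sum and active zone genes 20.8%.

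**Figure D2:**
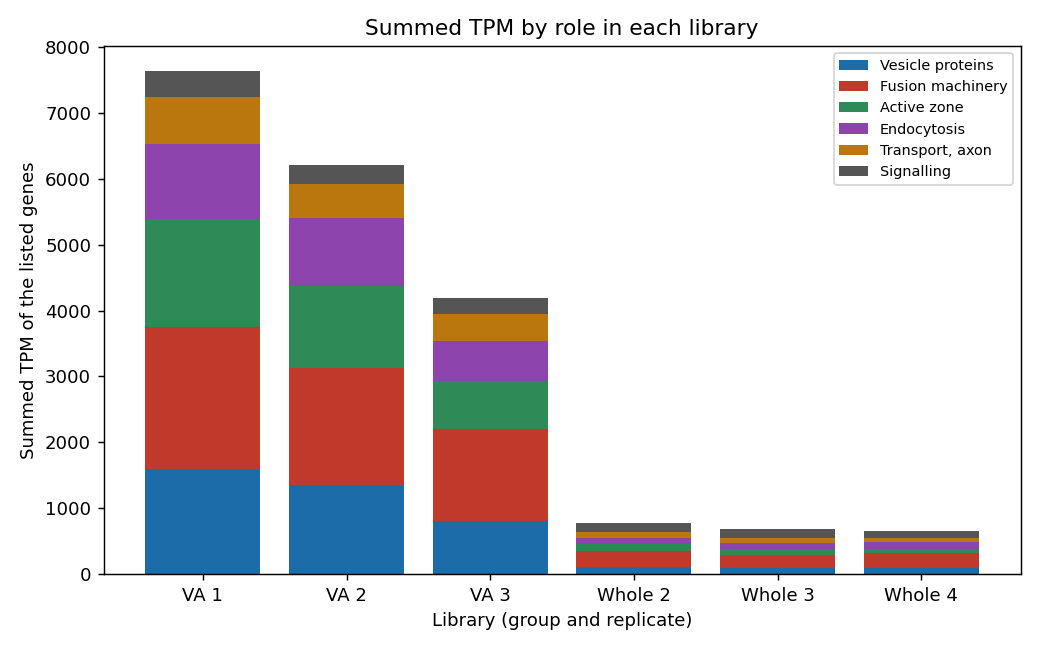
Summed TPM of the 36 genes in each library, stacked by role, with the 3 VA libraries on the left and the 3 whole-worm libraries on the right. The VA sums fall between 4197 TPM in replicate 3 and 7633 TPM in replicate 1, and the whole-worm sums lie between 663 and 769.9 TPM.

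Proteins that sit on synaptic vesicles or mature them were represented by 6 genes, all listed. Their sum was 1589.8, 1353 and 811 TPM in VA neurons and 107, 99.1 and 95.8 TPM in whole worms. The small GTPase gene rab-3 (WBGene00004267, chromosome II, 5721767 to 5727853 in WBcel235), whose product marks vesicles and steers them to release sites, read 605, 505 and 254 TPM in VA neurons and 35.4, 27.7 and 30.4 TPM in whole worms. The lowest VA library was 7.18 times the highest whole-worm library, and the difference on log2(TPM + 1) was 3.74 ± 0.38 (SE). Synaptotagmin, the calcium sensor of fast release, is encoded by snt-1 (chromosome II, 6810963 to 6816433), which read 300.2, 346 and 142 TPM in VA neurons and 21.3, 21.8 and 23.1 TPM in whole worms. The whole-worm libraries lay close together for snt-1, and VA replicate 3 stood well below the other VA libraries. Synaptogyrin, a membrane protein of the vesicle encoded by sng-1 (chromosome X, 7327601 to 7329705), read 313, 214 and 210.1 TPM in VA neurons and 10.1, 12.96 and 14.1 TPM in whole worms, with a ratio of 19.8. Synapsin, which tethers vesicles in the reserve pool and is encoded by snn-1, read 126, 93.5 and 104.3 TPM in VA neurons and 6.97, 4.80 and 6.49 TPM in whole worms. VA replicate 3 was close to replicate 2 for sng-1 and above it for snn-1, and both genes varied less over VA libraries than the rest of the vesicle group. The gene aex-3, which encodes an exchange factor that activates RAB-3, averaged 54.8 ± 23.1 TPM in VA neurons and 5.11 ± 1.06 TPM in whole worms. The gene ric-19, a relative of a mammalian islet autoantigen that acts in dense core vesicle maturation, averaged 125 ± 50.2 TPM in VA neurons and 23.8 ± 5.59 TPM in whole worms. With a ratio of 5.26, ric-19 was the lowest of the vesicle group.

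The fusion machinery gave 6 listed genes of 7, with the syntaxin gene unc-64 not among them. The other neuronal SNARE genes of the set had the highest mean levels of the 36 in VA neurons. The SNAP-25 gene ric-4 (WBGene00004364, chromosome V, 10261131 to 10270314) read 648, 700.1 and 331 TPM in VA neurons and 42.4, 42.1 and 49.03 TPM in whole worms. The synaptobrevin gene snb-1 (WBGene00004897, chromosome V, 6655562 to 6656501) read 608, 369 and 517 TPM in VA neurons and 122.4, 77.9 and 111 TPM in whole worms. Whole worms had more snb-1 than ric-4, and the ratio of VA neurons over whole worms was 4.80 for snb-1 and 12.6 for ric-4. Complexin, a small protein that binds the assembled SNARE complex and gates fusion, is encoded by cpx-1, which read 363, 216 and 336 TPM in VA neurons and 17.3, 12.4 and 16.2 TPM in whole worms. Its ratio of 19.97 was the highest of the fusion group, and VA replicate 2 rather than 3 was the lowest. The syntaxin-binding protein UNC-18 is needed for release, and its gene unc-18 (chromosome X, 7682896 to 7686037) read 353, 316 and 144 TPM in VA neurons and 25.03, 31.02 and 20.9 TPM in whole worms. The priming factor gene unc-13, whose product opens syntaxin, read 124, 121.7 and 39.1 TPM in VA neurons and 18.9, 17.7 and 12.4 TPM in whole worms. The gene tom-1, which encodes the release inhibitor tomosyn, read 63.7, 57.1 and 25.5 TPM in VA neurons and 17.2, 18.3 and 16.5 TPM in whole worms. Both were lowest in VA replicate 3, and tom-1 had the smallest ratio of the fusion genes, 2.81 (difference 1.34 ± 0.38, SE).

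All 11 genes of the active zone group were listed, cla-1 among them by identifier. They summed to 1640.3, 1240.4 and 724 TPM in VA neurons and 102, 87.1 and 67.4 TPM in whole worms. The 11 include nrx-1, nlg-1 and rpm-1, adhesion and turnover genes of the synapse that are described below. The kinase gene sad-1 (chromosome X, 13487552 to 13500668), which acts in presynaptic differentiation and neuronal polarity, read 407, 306 and 171 TPM in VA neurons and 9.36, 8.19 and 6.85 TPM in whole worms. Its ratio of 36.2 was the largest of the 36, and the lowest VA library was 18.3 times the highest whole-worm library. The RIM-binding protein gene rimb-1 (chromosome III, 1788333 to 1807147), whose product links calcium channels to release sites, read 199, 127 and 149 TPM in VA neurons and 8.20, 6.41 and 5.34 TPM in whole worms. The pore subunit gene of the presynaptic calcium channel, unc-2 (chromosome X, 2710920 to 2763526), read 219, 148 and 71.8 TPM in VA neurons and 12.6, 9.38 and 5.84 TPM in whole worms. Both were far above whole worms, but unc-2 was much lower in VA replicate 3 than in the other VA libraries, while rimb-1 was not. The scaffold gene elks-1 read 191, 126 and 98.6 TPM in VA neurons and 10.2, 6.94 and 6.40 TPM in whole worms. RIM, the scaffold that binds RAB-3 and is encoded by unc-10, averaged 73.7 ± 33.02 TPM in VA neurons and 9.94 ± 2.36 TPM in whole worms. The liprin-alpha gene syd-2 and the syd-1 gene, whose products start active zone assembly, differed in their ratios: syd-1 averaged 108 ± 42.4 TPM in VA neurons and 6.78 ± 1.89 TPM in whole worms, a ratio of 15.9, and syd-2 averaged 24.6 ± 10.6 TPM in VA neurons and 7.78 ± 1.10 TPM in whole worms, a ratio of 3.16. The large scaffold gene cla-1, which encodes clarinet, read 40.9, 41.8 and 11.4 TPM in VA neurons and 8.97, 6.51 and 5.03 TPM in whole worms.

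Adhesion and turnover genes of the synapse spread widely. The neurexin gene nrx-1 (chromosome V, 10825011 to 10846703) read 155, 147 and 61.7 TPM in VA neurons and 6.76, 6.72 and 4.54 TPM in whole worms, a ratio of 20.2. The neuroligin gene nlg-1 (chromosome X, 13625373 to 13631172), whose product binds neurexin across the cleft, read 86.5, 89.4 and 31.98 TPM in VA neurons and 8.45, 9.08 and 9.66 TPM in whole worms, a ratio of 7.65. Neurexin thus stood further above whole worms than its partner. The ubiquitin ligase gene rpm-1 (chromosome V, 8805399 to 8819955), which limits synapse growth, read 53.6, 44.3 and 10.4 TPM in VA neurons and 7.63, 8.85 and 4.59 TPM in whole worms. VA replicate 3 was only 1.17 times the highest whole-worm library for rpm-1, the narrowest margin of the 36 genes, and its ratio was 5.14 with all libraries and 6.97 without VA replicate 3.

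**Figure D3:**
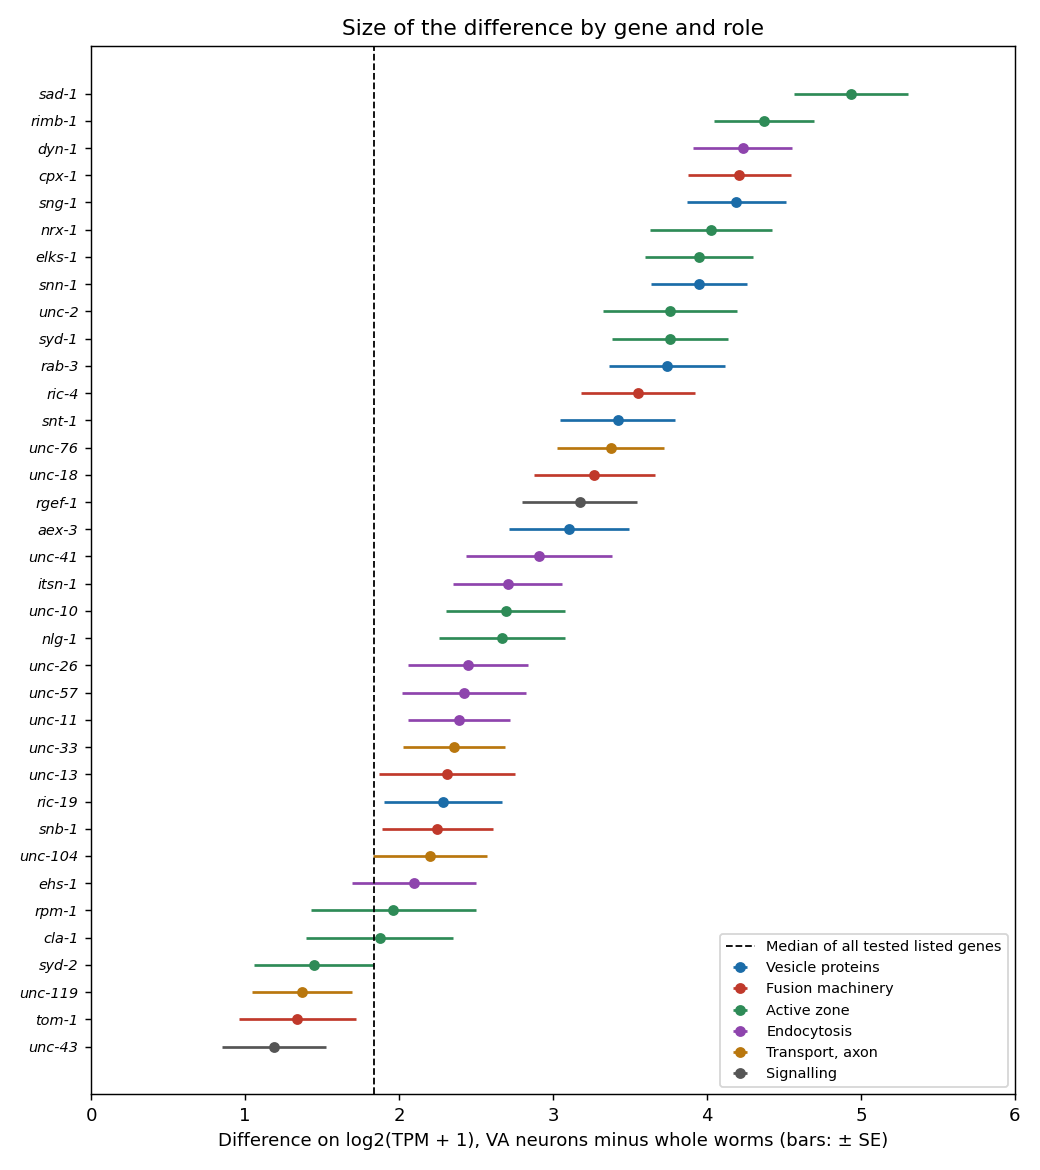
Difference on log2(TPM + 1), VA neurons minus whole worms, for each of the 36 genes, with bars of ± SE from limma, colours by role and a dashed line at the median of all tested listed genes (1.83). Active zone genes lie both at the top (sad-1, 4.94) and near the bottom (syd-2, 1.45), and unc-43 has the smallest difference (1.19).

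Endocytic genes were listed in 7 of 7 cases and were led by dynamin, the GTPase that pinches vesicles from the membrane. Its gene dyn-1 (chromosome X, 15568890 to 15573021) read 584, 412 and 390.5 TPM in VA neurons and 24.1, 20.4 and 25.6 TPM in whole worms, with a ratio of 19.8. No other endocytic gene came near it, as the remaining ratios ran from 4.85 for the Eps15 gene ehs-1 to 9.21 for the stonin gene unc-41. Endophilin, encoded by unc-57, bends membrane and recruits synaptojanin, and read 195, 203 and 78.1 TPM in VA neurons and 26.3, 22.3 and 31.4 TPM in whole worms. The synaptojanin gene unc-26, whose product strips the coat, read 42.05, 39.2 and 16.8 TPM in VA neurons and 4.59, 4.98 and 4.67 TPM in whole worms. Stonin sorts synaptotagmin into new vesicles, and unc-41 read 155, 185 and 46.2 TPM in VA neurons and 16.3, 14.4 and 11.2 TPM in whole worms. The clathrin adaptor gene unc-11, a relative of AP180 that retrieves synaptobrevin, read 21.00, 20.9 and 16.8 TPM in VA neurons and 3.14, 3.46 and 2.22 TPM in whole worms. It was the least abundant of the 36 in VA neurons and at the same time the one with the smallest relative spread over VA libraries (coefficient of variation 12.2%). The intersectin gene itsn-1, a scaffold of endocytic sites, averaged 36.6 ± 12.7 TPM in VA neurons and 4.52 ± 0.380 TPM in whole worms. Its partner gene ehs-1 averaged 89.1 ± 41.1 TPM in VA neurons and 18.4 ± 2.43 TPM in whole worms. All 7 were lowest in VA replicate 3.

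Of 5 genes for axonal transport and axon structure 4 were listed, without the ankyrin gene unc-44. The kinesin gene unc-104 (chromosome II, 6994987 to 7010625), whose motor carries synaptic vesicle precursors along the axon, read 127, 126 and 56.4 TPM in VA neurons and 20.5, 22.2 and 18.3 TPM in whole worms. The adaptor gene unc-76, a FEZ-family member needed for axon bundling and transport, read 491, 325 and 280.02 TPM in VA neurons and 41.1, 32.8 and 27.5 TPM in whole worms. With a ratio of 10.8 unc-76 stood above unc-104 at 5.07. The CRMP gene unc-33, which organises axonal microtubules, read 23.3, 18.5 and 29.4 TPM in VA neurons and 3.81, 3.34 and 4.16 TPM in whole worms and was the only gene of the 36 with its highest value in VA replicate 3. The unc-119 gene, used widely as a neuronal marker, averaged 52.1 ± 14.4 TPM in VA neurons and 19.04 ± 1.80 TPM in whole worms, a ratio of 2.74. Among signalling genes the pan-neuronal marker rgef-1, a Ras-family exchange factor, read 24.96, 24.6 and 13.2 TPM in VA neurons and 1.73, 0.920 and 1.45 TPM in whole worms. The CaMKII gene unc-43, a calcium-dependent kinase that also acts in muscle, read 371, 254 and 239 TPM in VA neurons and 130.03, 135 and 107 TPM in whole worms. It had the highest mean of the 36 transcripts in whole worms, 124 ± 15.2 TPM, and the smallest ratio, 2.32. In the authors' deposited table, unc-43 also had the largest FDR p-value of the 36 (0.00943) and the smallest fold (3.04), against 46.9 for sad-1. The authors' folds were between 1.26 and 1.36 times the ratios of mean TPM given here.

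By mean TPM in VA neurons the order began with ric-4 (559.7 ± 199.9 TPM), snb-1 (498 ± 120.4 TPM), dyn-1 (462 ± 106 TPM) and rab-3 (455 ± 181 TPM). It ended with syd-2, unc-33, rgef-1 and unc-11, the last at 19.6 ± 2.38 TPM. Only 1 of the 35 steps between neighbours in this order was larger than the SD of either neighbour, the step below sng-1 (246 ± 58.3 TPM) to unc-57 (159 ± 70.05 TPM), so single ranks are not resolved while the ends of the order are. The 36 genes had a median of the mean VA level of 114.7 TPM, against 32.7 TPM for all listed genes, and 21 of them averaged 100 TPM or more. In whole worms their median was 11.2 TPM, against 6.95 TPM for all listed genes. Levels of the 36 genes kept a similar order in any 2 VA libraries (Spearman's rho 0.916 to 0.977 over genes) and any 2 whole-worm libraries (0.946 to 0.968), and a less similar order between the mean levels of VA neurons and whole worms (0.730). Genes are not independent replicates, and these values describe the libraries.

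Ratios of transcripts within a library do not depend on the fixed total of TPM. Libraries also differed in a way related to transcript length, as given below. Some pairs are unequal in length, such as sad-1 (3430 nucleotides) and rpm-1 (11574 nucleotides). The part of length in these ratios was not tested. Pairs whose products work together or against each other were chosen after the values were seen, and none was tested. How often other pairs of listed genes separate the groups was not counted. For synaptobrevin over SNAP-25, snb-1 over ric-4, the ratio was 0.937, 0.527 and 1.56 in VA neurons and 2.89, 1.85 and 2.26 in whole worms, lower in each VA library. Neurexin over neuroligin, nrx-1 over nlg-1, gave 1.79, 1.64 and 1.93 in VA neurons and 0.801, 0.740 and 0.470 in whole worms. It was higher in each VA library than in each whole-worm library. The activator over the inhibitor of priming, unc-13 over tom-1, gave 1.94, 2.13 and 1.54 in VA neurons and 1.10, 0.965 and 0.754 in whole worms, higher in each VA library. In contrast, unc-13 over unc-18 was 0.350, 0.385 and 0.271 in VA neurons and 0.757, 0.571 and 0.595 in whole worms, lower in each VA library. For the active zone scaffolds, elks-1 over syd-2 was 5.93, 4.32 and 7.90 in VA neurons and 1.22, 0.820 and 0.983 in whole worms. For the kinase and ligase genes, sad-1 over rpm-1 was 7.59, 6.90 and 16.5 in VA neurons and 1.23, 0.926 and 1.49 in whole worms, with VA replicate 3 apart. Both pairs were higher in each VA library than in each whole-worm library. The groups overlapped for synaptojanin over endophilin, unc-26 over unc-57, at 0.216, 0.193 and 0.215 in VA neurons and 0.175, 0.223 and 0.149 in whole worms, and for cpx-1 over snt-1, at 1.21, 0.624 and 2.37 in VA neurons and 0.815, 0.569 and 0.699 in whole worms, where the VA libraries were widely spread.

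**Figure D4:**
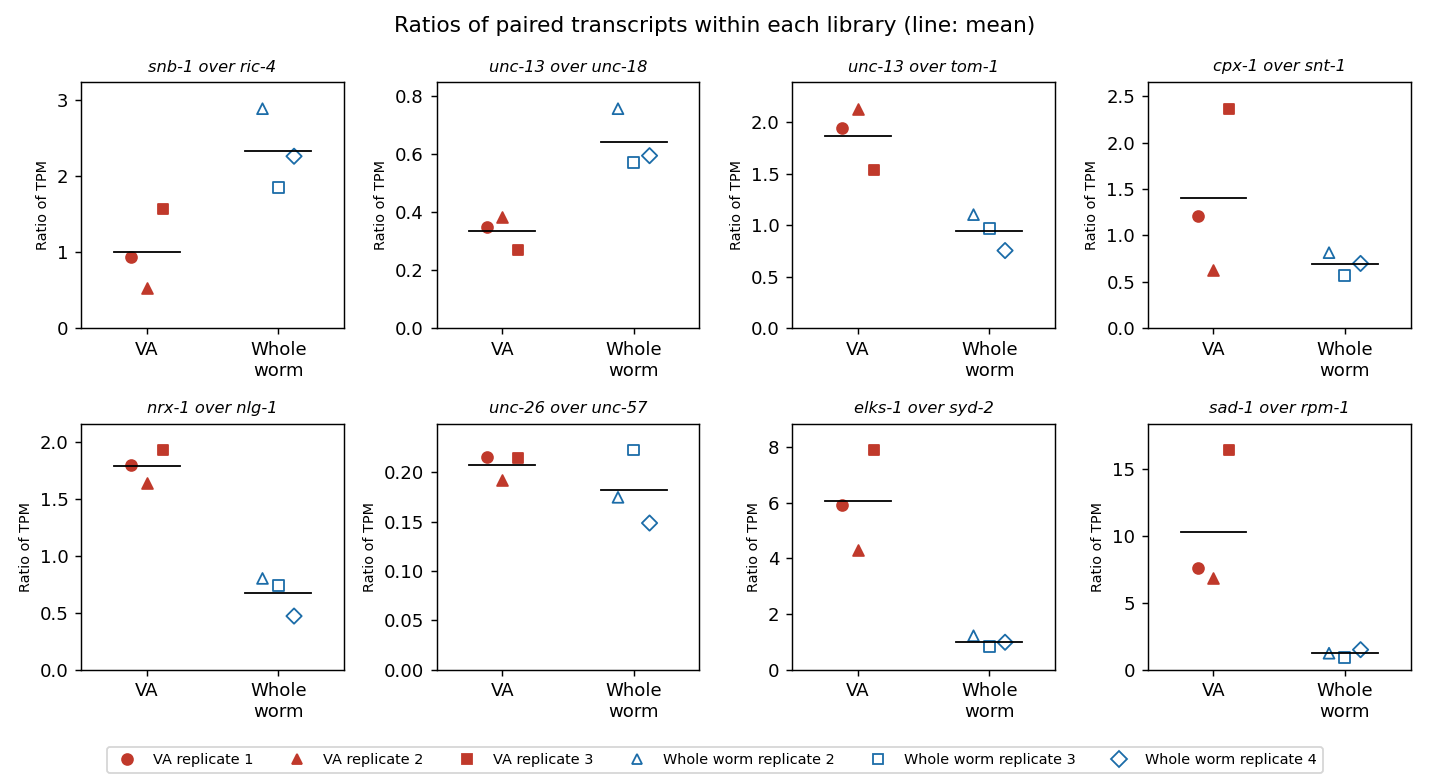
Ratio of TPM of 8 pairs of genes within each library, with VA neurons on the left and whole worms on the right of each panel and a line at the mean of 3 libraries. VA neurons and whole worms overlap for cpx-1 over snt-1 and unc-26 over unc-57 and not for the other pairs, for example nrx-1 over nlg-1. The pairs were chosen after the values were seen, and nothing is read from how many separate.

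Between the VA libraries the synaptic genes moved together, and most of the related gene lists described below moved the same way. Replicate 3 was the lowest VA library for 31 of the 36 genes and replicate 2 for the other 5, while 53.04% of all listed genes were lowest in replicate 3. The median of log2(TPM + 1) in replicate 3 minus replicate 1 was -1.22 for the synaptic genes and -0.60 for all listed genes, and in replicate 3 minus replicate 2 it was -1.01 for the synaptic genes and -0.15 for all listed genes. With heat shock genes left out, which took much of VA replicate 2, replicate 3 minus replicate 2 gave -1.55 for the synaptic genes and -0.66 for all listed genes. With TPM rescaled after heat shock genes were left out, replicate 3 was lowest for 34 genes, and with flp-1 and nlp-49 left out as well for 33, against 68.9% and 63.8% of all listed genes. Of the 9 VA marker genes, 4 were lowest in replicate 3 and 5 in replicate 2, and their median for replicate 3 minus replicate 1 was -0.43. The highest library changed with the rescaling: replicate 1 was highest for 27 genes as deposited (62.9% of listed genes), and replicate 2 for 25 genes with heat shock genes left out (48.8% of listed genes). The rescaling moves all genes of a library alike. A drop in replicate 3 was not particular to the 36 genes. In the related lists below, the deposited median for replicate 3 minus replicate 1 was -1.46 for genes of calcium and sodium leak channels. For other fusion genes it was -1.10. It was -1.06 for further active zone genes and -0.705 for other axonal transport genes, with coat and endocytic genes in between. The 4 listed genes of transmitter supply, loading and acidification had a median of 0.33. Of these, unc-17, cha-1 and cho-1 were higher in replicate 3, and the proton pump gene unc-32 was lower (-0.74). In the labels, the library of VA replicate 3 carries number 67, next to the unc-4 libraries (64 to 66), and those of replicates 1 and 2 carry 33 and 34, next to the whole-worm libraries (26 to 28); whether they were prepared apart is not given.

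The drop in VA replicate 3 was larger for genes with long transcripts. Complexin, with a longest annotated transcript of 804 nucleotides (nt), differed by -0.11 (log2, replicate 3 minus replicate 1), and snb-1, with 807 nt, by -0.23. At the other end stood unc-13 (6468 nt, -1.64), rpm-1 (11574 nt, -2.26) and cla-1 (27002 nt, -1.76). Over the 36 genes Spearman's rho with transcript length was -0.59, and over 1884 listed genes that averaged 10 TPM or more in VA libraries it was -0.25. These genes share their libraries, and the values carry no test. For VA replicate 2 minus replicate 1 it was 0.15 over the 36 genes and 0.21 over the listed genes. For whole-worm replicate 4 minus replicate 2 it was -0.51 over the 36 genes and -0.32 over the listed genes, so a relation to length was also present between whole-worm libraries. In each length class the median for replicate 3 minus replicate 1 was lower for the synaptic genes than for other listed genes. The classes are wide, and lengths within a class were not matched. Under 2000 nt the median was -0.89 for 10 synaptic genes and -0.48 for 1079 others. From 2000 to below 4000 nt it was -1.07 for 14 and -0.76 for 615, and from 4000 nt up -1.33 for 12 and -1.08 for 154. The part of transcript length in these differences was not tested further. Single genes departed from the trend on both sides. Among transcripts from 4000 nt up rimb-1 (4368 nt, -0.42) was little lower, and in the middle class unc-33 (3595 nt, 0.32) was higher. Among short ones rab-3 (1460 nt, -1.25), ric-19 (1482 nt, -1.24) and unc-57 (1742 nt, -1.31) were far lower.

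**Figure D5:**
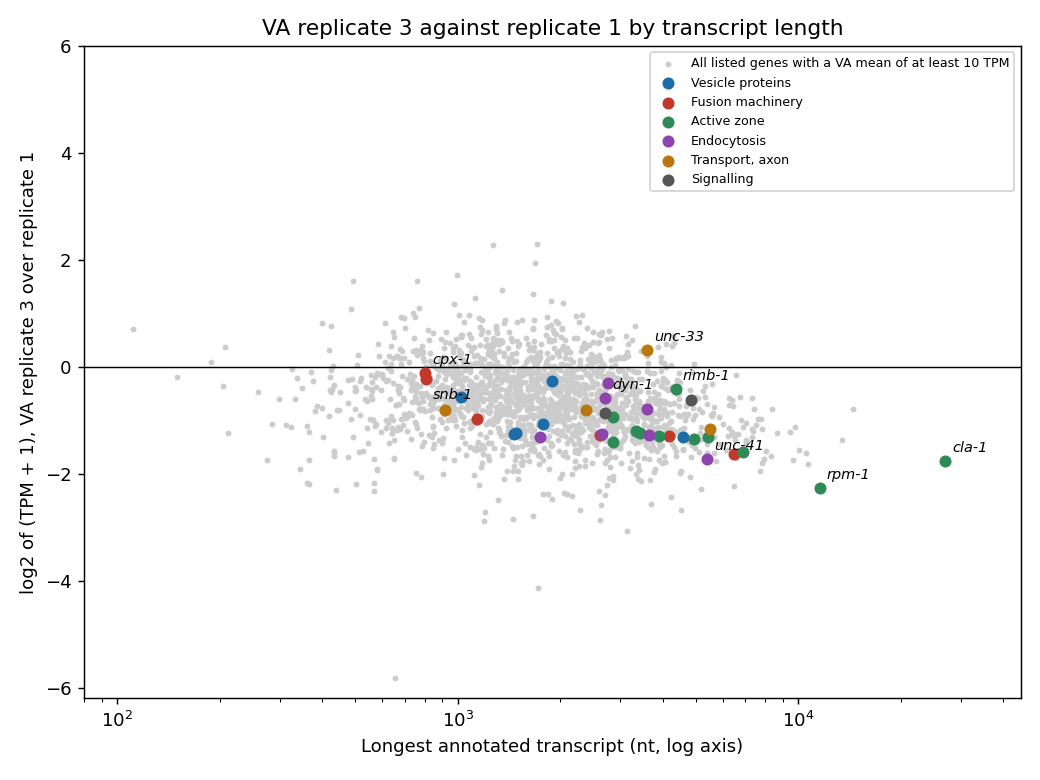
Log2 of (TPM + 1) in VA replicate 3 over replicate 1 against the longest annotated transcript (log axis), with synaptic genes coloured by role and other listed genes that averaged 10 TPM or more in VA libraries in grey. The short genes cpx-1 and snb-1 lie near 0, the long genes rpm-1 and cla-1 at -2.26 and -1.76, and unc-33 is the only synaptic gene above 0.

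Genes beside the 38 in the same pathways were taken from 6 lists and matched by identifier, and 47 of 76 were listed. Of annotated protein-coding genes 11.6% were listed. Listing was set by the authors' selection of genes higher in VA neurons, so nothing is read from the counts of each list below. Genes of transmitter synthesis, choline uptake, vesicle loading and vesicle acidification were listed in 4 of 12 cases. The vesicular acetylcholine transporter gene unc-17 read 253, 167 and 357 TPM in VA neurons and 2.50, 1.80 and 3.58 TPM in whole worms. The choline acetyltransferase gene cha-1 averaged 108 ± 16.5 TPM in VA neurons and 6.54 ± 1.26 TPM in whole worms, and the choline transporter gene cho-1 132 ± 61.1 TPM in VA neurons and 3.03 ± 0.393 TPM in whole worms. The proton pump subunit gene unc-32 averaged 250.1 ± 69.8 TPM in VA neurons and 62.2 ± 5.84 TPM in whole worms. The genes unc-17 and cha-1 overlap, so their levels are uncertain. On log2 of TPM + 1, VA replicate 3 minus replicate 1 was 0.49 for unc-17, 0.17 for cha-1 and 0.82 for cho-1. For unc-32 it was -0.74. The transporter genes of other transmitters, unc-47 (GABA), eat-4 (glutamate) and cat-1 (monoamines), were not listed.

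Other synaptotagmin, SNARE and fusion genes were listed in 11 of 20 cases, with the synaptotagmin gene snt-4 at 2891 ± 1162 TPM in VA neurons and 310.2 ± 46.4 TPM in whole worms, above snt-1 in every library. The gene nsf-1, which encodes the ATPase that recycles SNAREs, averaged 223 ± 82.8 TPM in VA neurons and 28.9 ± 2.35 TPM in whole worms. The Rab27 gene aex-6 averaged 131 ± 44.5 TPM in VA neurons and 8.39 ± 1.17 TPM in whole worms, and the synaptotagmin gene snt-3 128 ± 48.8 TPM in VA neurons and 9.69 ± 1.76 TPM in whole worms. Genes of voltage-gated calcium channels and of the sodium leak channel complex were listed in 8 of 8 cases. The alpha2delta-type gene tag-180 averaged 277 ± 168 TPM in VA neurons and 15.6 ± 2.35 TPM in whole worms, and the beta subunit gene ccb-1 262 ± 66.7 TPM in VA neurons and 17.2 ± 3.16 TPM in whole worms. Of the leak channel partners, unc-80 averaged 147 ± 71.9 TPM in VA neurons and 16.1 ± 4.30 TPM in whole worms, and unc-79 109 ± 47.3 TPM in VA neurons and 7.74 ± 2.52 TPM in whole worms. As a group these had a median of -1.46 for VA replicate 3 minus replicate 1, below that of the synaptic genes. Further genes of active zone assembly and synapse organisation were listed in 9 of 12 cases, led by madd-4, whose secreted product organises postsynaptic receptors, at 755 ± 318 TPM in VA neurons and 37.6 ± 7.25 TPM in whole worms. The calsyntenin gene casy-1 averaged 603 ± 221 TPM in VA neurons and 73.1 ± 8.60 TPM in whole worms. The scaffold gene lin-2 averaged 173 ± 88.98 TPM in VA neurons and 10.2 ± 2.90 TPM in whole worms, and the receptor phosphatase gene ptp-3 139 ± 53.9 TPM in VA neurons and 16.1 ± 3.06 TPM in whole worms.

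Coat and endocytic genes were listed in 5 of 11 cases, all of them subunits of clathrin adaptor complexes. The AP2 subunit gene apa-2 averaged 235.2 ± 102 TPM in VA neurons and 25.5 ± 4.39 TPM in whole worms, and dpy-23 224 ± 33.6 TPM in VA neurons and 23.9 ± 3.23 TPM in whole worms. The small subunit gene aps-2 averaged 118.7 ± 43.2 TPM in VA neurons and 26.7 ± 4.53 TPM in whole worms, and apb-1 59.7 ± 12.9 TPM in VA neurons and 15.5 ± 2.02 TPM in whole worms. The clathrin chain genes chc-1 and clic-1 were not listed. Axonal transport genes were listed in 10 of 13 cases. The alpha tubulin gene tba-1 averaged 1074 ± 201 TPM in VA neurons and 178 ± 32.5 TPM in whole worms, a level that is uncertain because tubulin paralogs are nearly identical. The kinase gene unc-51 averaged 193 ± 23.8 TPM in VA neurons and 19.1 ± 3.05 TPM in whole worms, and unc-14, whose product binds UNC-51, 478 ± 218 TPM in VA neurons and 141 ± 14.9 TPM in whole worms. The coiled-coil gene unc-69 averaged 455 ± 146 TPM in VA neurons and 65.98 ± 7.22 TPM in whole worms. The median ratio over the 47 listed genes of these lists was 7.93, and that of the 36 synaptic genes was 8.65.

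The other deposited comparison set unc-4 mutant VA neurons against wild type VA neurons; unc-4 encodes a homeodomain factor of these cells. None of the 38 genes (0 by symbol and 0 by identifier) was among the 214 genes that the authors listed as higher in the mutant, where 1.07% of annotated protein-coding genes were listed, and nothing is read from this count. That table holds only genes selected as higher, so synaptic genes that were lower or did not pass the authors' threshold were not analysed here, and no mutant level is given for any of them.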

How the data were processed

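RNA was measured in 9 libraries of 3 groups. Per the labels' protocols, low-input SMART-Seq cDNA was sequenced on an Illumina instrument. The authors deposited TPM per gene and library, the mean TPM of each group, a linear fold (ratio) and an FDR p-value; WBcel235 is the genome build per the submitters' processing notes, and the aligner and test are not given in the sources used here. TPM keeps no depth, so the number of libraries limits the precision. The unc-4 table has 2 rows that name no gene, which were left out.

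The 38 genes, their roles and all gene lists were chosen with earlier results of these data known. Genes were matched by symbol and then by identifier; named genes are all listed members and up to 4 listed genes of highest mean VA TPM per list. Differences come from limma 3.58.1 in R 4.3.3 (mean-variance trend, Benjamini-Hochberg adjustment) on log2(TPM + 1) over all listed genes that averaged 1 TPM or more in VA neurons or in whole worms, without a replicate block. The fit was also run on simulated data in which only a minority of genes was raised. Every gene of the real comparison had been selected as higher, so nothing is read from that run. P-values measure only the spread between these libraries, which may be technical. Coordinates and transcript lengths come from Ensembl release 115 (WBcel235). Exons of 11 of the 36 genes overlap another gene, 7 of them a protein-coding gene by 6 to 73 bases on the opposite strand (rab-3, syd-2, cla-1, unc-26, ehs-1, unc-76 and rgef-1); whether counting used strand is not given. Figures were drawn with matplotlib 3.10.9. Alternatives were other pseudocounts (0.1 and 5) and filters, rescaled TPM, a replicate block and leaving out each library.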

Additional observations from a re-analysis of the deposited data

How the results depend on the processing

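All 36 genes kept their direction under each alternative that was run, and none moved by over 1.5 times in its ratio with 1 library left out (largest move 1.36 times). The count past the threshold of limma's test stayed at 36 of 36 under every pseudocount, filter, rescaling and left-out library, where 81.6 to 97.4% of all tested genes of the table passed; the genes were selected on this contrast, so nothing is read from it. The median difference of the 36 genes lay between 2.60 and 3.30 with 1 library left out, at 2.30 with a pseudocount of 5 and 2.95 with 0.1. Rescaling without heat shock genes moved it to 3.02 and that of all tested genes to 2.03. With flp-1 and nlp-49 left out too, an alternative added after the data were seen, the medians were 3.17 and 2.17, and the mean summed level in VA neurons was 7864 TPM against the deposited 6011 TPM, since the removed share of the total is returned to the other genes. The groups share replicate numbers 2 and 3 in the labels. Deviations of same-numbered libraries from their group means correlated at 0.0681 and -0.0125 over the listed genes. With so few libraries, and VA libraries that differ in heat shock share, these values cannot decide whether the numbers pair the samples. A fit with the replicate block on those 4 libraries passed 34 of 36 genes, without syd-2 (adjusted p = 0.0595 by limma) and unc-43 (adjusted p = 0.119), against 68.4% of tested genes, and 31 without the block on the same 4 libraries, against 65.2%, an alternative added after the data were seen. Both rest on fewer samples. The unc-4 table gave 0 genes by symbol or identifier, and its block fit was not run for lack of a member.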
